A study of Mus musculus with 6 samples.

Results

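miR-221 and miR-222 are neighbouring hairpins on the mouse X chromosome, and their 4 mature products, miR-221-3p, miR-221-5p, miR-222-3p and miR-222-5p, were followed here in oligodendrocytes and in the vesicles that these cells released. The 4 members were found by name among the 1906 mature miRNAs counted in each library, and the naming rule itself uses no measured value, although the pair was picked with earlier results of these data known. The study sequenced small RNA from 3 extracellular vesicle (EV) libraries and 3 cell libraries. All came from primary cultured oligodendrocytes, the glia that make myelin in brain and spinal cord, taken from C57BL/6N mice at embryonic day 14. Cultures received Sato medium containing 1% horse serum, were washed, and then kept for 24 h in serum-free Sato with the supplement B27 while vesicles were collected. The EV group was sampled at 5 to 6 days in vitro and pelleted in a last spin at 100000 g, and the cell group consisted of whole cells at 6 days. Such a pellet can also hold particles other than vesicles, a primary culture can hold other cell types, and no library of medium alone was analysed here.

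Both hairpins are cut from a single primary transcript, so they are transcribed together, while cleavage, loading and decay can still set their mature levels apart. The 3p strands are the guides that load into Argonaute, and the 5p strands are mostly passengers. miR-221-3p and miR-222-3p are known for repressing Cdkn1b (p27), an inhibitor of the cell cycle, and the receptor Kit. They are abundant in endothelium and vascular smooth muscle, and are often raised in proliferating and tumour cells, glioma included. p27 takes part in the exit of oligodendrocyte precursors from the cell cycle. No mRNA was measured, so none of these targets could be followed.

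The sequences are shown because the paired guides share their targeting end but differ in their body. RefSeq holds the mature sequences of 3 of the 4 members. In the following lines, written 5′ to 3′, capitals mark the seed, bases 2 to 8, which pairs with targets.
miR-221-3p: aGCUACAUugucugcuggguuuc
miR-222-3p: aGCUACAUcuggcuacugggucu
miR-221-5p: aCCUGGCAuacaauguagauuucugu
The 3p strands are both 23 bases long and are identical over their first 8 bases. They then differ at 12 of the 23 positions when laid side by side without gaps, starting with U9C, G10U and U11G (positions counted from 1 at the 5′ end, the miR-221-3p base first). Reads of the paired guides can therefore be told apart by their bodies, although these share a run of 6 bases. It starts at position 15 in miR-221-3p and at position 16 in miR-222-3p. The same seed was found in only 1 other measured miRNA with a RefSeq sequence, miR-1928, which had 0 reads in the 6 libraries. Of the 1906 miRNAs, 1622 have a sequence in that table.

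The hairpins lie on the minus strand of chromosome X, at chrX:19146294-19146388 for Mir221 and chrX:19146893-19146971 for Mir222 in build GRCm38.p6 (RefSeq). The authors counted reads on an older build, so these positions serve only to place the genes. Between them are 504 bases, and RefSeq lists 0 other miRNA hairpins within 10000 bases of them. GENCODE M21 annotates no gene over either hairpin other than the miRNA genes themselves. In the hairpins, capitals mark the mature strands that RefSeq lists.
Mir221: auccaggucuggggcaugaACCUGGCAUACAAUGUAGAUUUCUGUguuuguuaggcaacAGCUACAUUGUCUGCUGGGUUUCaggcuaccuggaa
Mir222: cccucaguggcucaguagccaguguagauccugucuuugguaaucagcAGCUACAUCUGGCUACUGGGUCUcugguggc

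Total counts ran from 313766 to 689475 in the EV libraries and from 126910 to 202358 in the cell libraries. The cell libraries had 33961 to 43435 CPM (reads per 1000000 reads counted over all miRNAs of a library) over 5 miRNAs of the oligodendrocyte lineage, and the EV libraries 33557 to 36111 CPM. Of these 5, miR-219a-2-3p stood highest in both groups, and the 5 did not all differ between groups in the same direction. Nothing in the labels tells whether replicates stem from different cultures. The p-values therefore reflect only how far these libraries spread, which may be technical.

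Both guides were less abundant in EVs than in cells, and miR-222-3p was the more strongly reduced. miR-221-3p stood at 464, 188 and 322 CPM in EVs replicates 1, 2 and 3, and at 711, 378 and 549 CPM in the cell replicates of the same numbers. The groups overlapped, because EVs replicate 1 lay above Cells replicate 2. The values rested on 59 to 222 reads per EV library and 48 to 111 per cell library. The group means were 325 ± 138 CPM in EVs and 546 ± 166 CPM in cells (SD, n = 3 each).

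miR-222-3p stood at 343, 150 and 244 CPM in EVs replicates 1 to 3 and at 1056, 355 and 618 CPM in the cell replicates. Here every EV value lay below every cell value, as for 20.2% of the tested miRNAs, although EVs replicate 1 and Cells replicate 2 nearly met. It rested on 47 to 168 reads per EV library and 45 to 165 per cell library. The means were 246 ± 96.8 CPM in EVs and 676 ± 355 CPM in cells (SD, n = 3 each).

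**Figure D1:**
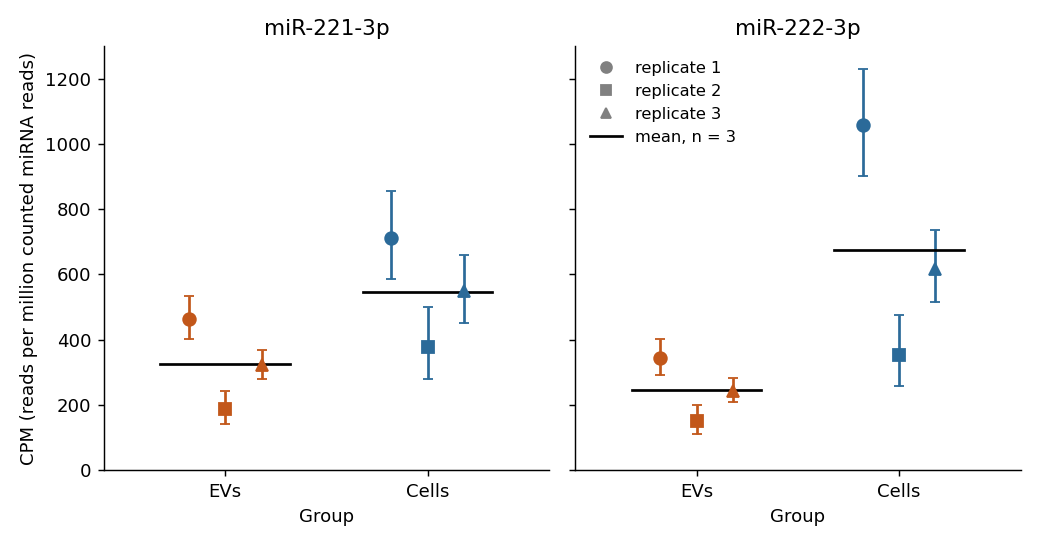
CPM of miR-221-3p and miR-222-3p in each library, with 95% exact Poisson intervals of the read counts as bars and the group mean as a line. Replicate 2 is the lowest and replicate 1 the highest of its group in all 4 sets of points, and the EV mean of each guide lies below its cell mean.

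In the edgeR quasi-likelihood test over the 336 miRNAs with enough counts, miR-222-3p fell by 1.98 on the log2 scale in EVs (SE 0.43, BH-adjusted p = 0.00378), which is 3.95-fold. miR-221-3p fell by 1.25 (SE 0.35, edgeR BH-adjusted p = 0.0128), which is 2.38-fold. A fall was called for 28.9% of all tested miRNAs, so passing the threshold in this direction was common. Counted from the largest decrease, miR-222-3p ranked 25 and miR-221-3p ranked 59 of the 336 fold changes.

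These values use TMM factors, which scale the libraries to each other by most of their miRNAs. With library size as the only scaling, the median over the 336 log2 fold changes moved from 0.06 to 0.54, and 17.9% of the miRNAs were called lower. On that scale miR-222-3p stayed lower at -1.46 (edgeR BH-adjusted p = 0.0084), whereas miR-221-3p stood at -0.75 and was not called (adjusted p = 0.0754). Relative to the median of all miRNAs, miR-221-3p stood at -1.31 with TMM and -1.28 with library size, and miR-222-3p at -2.04 and -1.99. A change of scaling shifts all fold changes by nearly the same amount. This relative position could therefore hardly move, and it does not tell which scaling is right.

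**Figure D2:**
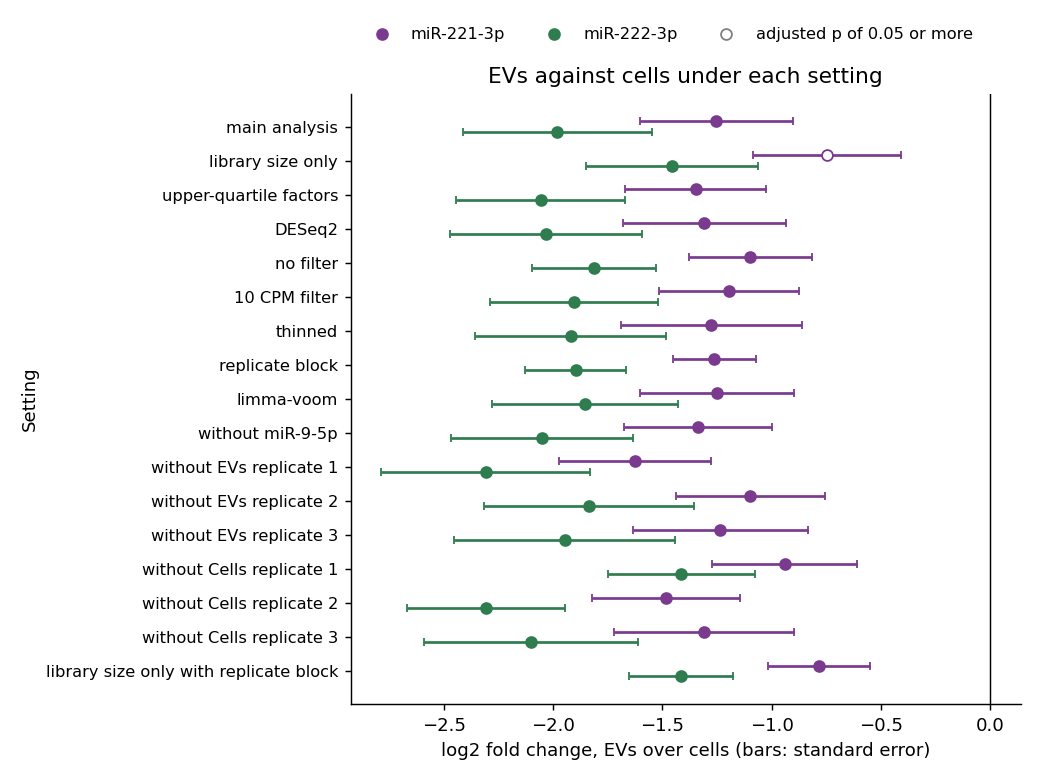
log2 fold change of EVs over cells (horizontal axis, bars are standard errors) for both guides under the main analysis and each alternative, filled where the adjusted p was below 0.05. All points lie below 0, and the open point is miR-221-3p with library size only.

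In the ranking of all miRNAs by counts, the guides stood well below the top, but in the upper part of the miRNAs detected. From 560 to 622 miRNAs had a read in the cell libraries, and 666 to 823 in the EV libraries. miR-222-3p ranked 86, 150 and 110 in cell replicates 1, 2 and 3, and 179, 230 and 212 in EVs. miR-221-3p ranked 102, 146 and 120 in cells, and 152, 211 and 189 in EVs. The 4 members together held 749 to 1799 CPM in cell libraries against 344 to 821 CPM in EV libraries. Their summed means were 1243 ± 528 and 581 ± 239 CPM (SD, n = 3 each, exact permutation p = 0.2, two-sided, with 0.1 the smallest that 3 against 3 allows).

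The paired guides followed each other closely from library to library. In both groups, and for both guides, replicate 1 was highest, replicate 3 was in the middle and replicate 2 was lowest. On TMM-scaled log2 CPM, miR-221-3p deviated from its group mean by 0.56, -0.56 and 0.00 in EVs replicates 1, 2 and 3, and by 0.59, -0.56 and -0.02 in the cell replicates. miR-222-3p deviated by 0.52, -0.50 and -0.01 in EVs and by 0.94, -0.87 and -0.07 in cells. The excursions of the paired guides were thus alike in size in EVs, and wider for miR-222-3p in cells.

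Each guide was the miRNA most like the other. Among 279 candidates with at least 100 CPM in either group, miR-222-3p ranked 1 for likeness to miR-221-3p, and the reverse held too, with a Pearson r of 0.987 over the 6 libraries. This r is a description: it holds the difference between the groups and the order within them, and the values share libraries and scaling. Next for both came miR-181b-1-3p, a passenger strand, with r of 0.984 to miR-221-3p and 0.973 to miR-222-3p. miR-30d-5p (0.968) and miR-21a-5p (0.946) followed for miR-221-3p, and miR-744-5p (0.97) and miR-21a-5p (0.969) for miR-222-3p. miR-21a-5p, a miRNA raised in many growing and activated cells, fell by 1.65 on the log2 scale in EVs (SE 0.25, edgeR BH-adjusted p = 0.000661). miR-30d-5p, by contrast, had a log2 fold change of -0.37 (edgeR BH-adjusted p = 0.0869) and did not pass the test.

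**Figure D3:**
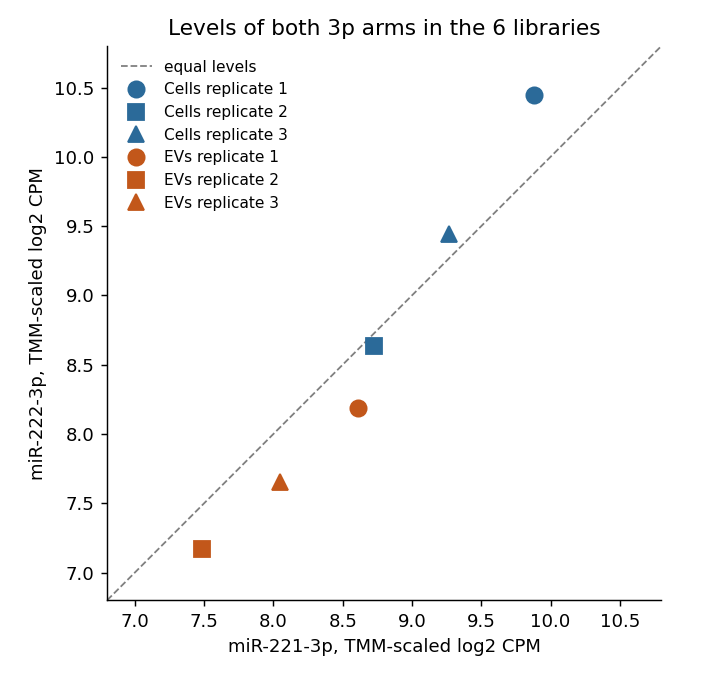
TMM-scaled log2 CPM of miR-222-3p against miR-221-3p in the 6 libraries, with a dashed line at equal levels. The points rise together, all 3 EV libraries lie below the line, and cell replicates 1 and 3 lie above it.

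Compared between libraries of the same number, both guides were lower in EVs in all 3 cases, which was so for 25% of the tested miRNAs by CPM. The EV level of miR-221-3p was 0.653, 0.497 and 0.587 times that of cells for numbers 1, 2 and 3. For miR-222-3p it was 0.325, 0.422 and 0.394 times. At each number the reduction was deeper for miR-222-3p, by the widest margin in replicate 1. With the replicate number as a block, the log2 fold changes were -1.26 for miR-221-3p (SE 0.19, edgeR BH-adjusted p = 0.002) and -1.90 for miR-222-3p (SE 0.23, adjusted p = 0.000813), so the standard errors were smaller than without it. With the block, 28.6% of the tested miRNAs were called lower. The block also changed the call of miR-221-3p on library size only, to -0.78 (edgeR BH-adjusted p = 0.0128), in a fit chosen after seeing the data.

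The balance within the pair leaned towards miR-221-3p in EVs at full depth. After a single random thinning to equal depth, which adds counting error, it did not in every EV library. The ratio of the guides within a library needs no scaling between libraries. miR-221-3p made up 57.5%, 55.7% and 56.9% of the summed 3p reads of both guides in EVs replicates 1, 2 and 3. In cells the shares were 40.2%, 51.6% and 47.0%. All 3 EV libraries thus lay above all 3 cell libraries, and they were also close to each other, with an SD of 0.929 percentage points against 5.73 in cells.

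Counting error was wide beside these gaps. The 95% exact binomial intervals were 52.1% to 62.7%, 45.7% to 65.3% and 51.8% to 61.9% in EVs. In cells they were 34.4% to 46.3%, 41.0% to 62.1% and 40.5% to 53.6%. Replicate 2, the shallowest library of each group, had the widest interval. The interval of Cells replicate 1 lay wholly below those of EVs replicates 1 and 3, and the remaining EV and cell intervals overlapped.

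The log2 ratio of miR-221-3p to miR-222-3p had a mean of 0.39 ± 0.06 in EVs and -0.22 ± 0.33 in cells (SD, n = 3 each). The difference of 0.60 gave an exact permutation p of 0.1, two-sided, the smallest that 3 against 3 allows. Over the 5 values compared in this way (the ratio, the share, the summed level and the CPM of each guide) the BH-adjusted p of the ratio was 0.167 and that of the summed level 0.2, both from exact permutation. Between libraries of the same number the difference was 1.00, 0.23 and 0.57 (exact sign-flip p = 0.25, the smallest that 3 pairs allow). Without Cells replicate 1 the difference was 0.43. With every library thinned once to 126910 counts it was 0.39 (exact permutation p = 0.4, two-sided), and the groups overlapped. EVs replicate 2 then had 18 reads of miR-221-3p and 25 of miR-222-3p, a miR-221-3p share of 41.9%, while EVs replicates 1 and 3 stood at 62.6% and 61.8%. The cell libraries ran from 41.9% to 53.1% after thinning. Thinning was drawn once and drops reads at random, so it adds counting error and cannot tell whether unequal depth shaped the shares. Over 17 fits of the whole table, the log2 fold change of miR-221-3p exceeded that of miR-222-3p by 0.47 to 0.82. Scaling shifts both guides nearly alike, so fits that differ only in scaling could hardly change this gap. Adapter ligation favours some sequences over others, so a share of 50% need not stand for equal numbers of molecules, and it is the difference between groups that can be compared.

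**Figure D4:**
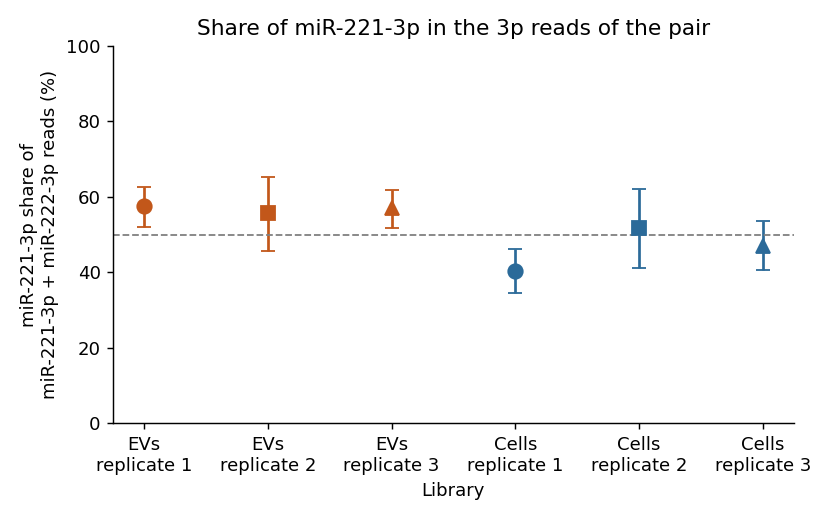
Share of miR-221-3p in the reads of miR-221-3p and miR-222-3p in each library (%), with 95% exact binomial intervals as bars and a dashed line at equal reads. The EV libraries lie between 55.7% and 57.5% and the cell libraries between 40.2% and 51.6%.

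The passenger strands were near the limit of detection, so the guides carried nearly all reads of both hairpins. miR-221-5p had 4, 1 and 5 reads in EVs replicates 1 to 3 and 5, 1 and 2 reads in cells. miR-222-5p had 2, 1 and 3 reads in EVs and 0, 1 and 1 in cells. For a library with no read, the limit is 3 reads, or 19.2 CPM in Cells replicate 1. Neither 5p strand passed the filter on low counts, so 2 of the 4 members entered the test.

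Summed over the 3 libraries of a group, the 5p strand held 2.04% of miR-221 reads in EVs (10 of 491, 95% exact binomial interval 0.981% to 3.71%) and 2.88% in cells (8 of 278, 1.25% to 5.59%). For miR-222 it held 1.63% in EVs (6 of 369, 0.599% to 3.51%) and 0.593% in cells (2 of 337, 0.072% to 2.13%). Among 165 hairpins tested with limma on log2((5p + 0.5)/(3p + 0.5)), a change of arm ratio was called for 31.5%, and for neither hairpin of this pair. The log2 difference, EVs minus cells, was -0.43 for miR-221 (SE 0.44, limma BH-adjusted p = 0.491) and 1.07 for miR-222 (SE 0.79, adjusted p = 0.346). With so few 5p reads, a shift of the arms could not be detected at this depth unless it was large.

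Other hairpins that share a transcript or lie next to each other gave a scale for the agreement of the pair. Of 12 such pairs chosen from general knowledge, 11 had both partners tested. The fold changes of miR-221-3p and miR-222-3p lay 0.73 apart on the log2 scale. In the other pairs the gap ranged from 0.07 to 2.20, with a median of 0.88, and it was larger in 6 and smaller in 5. miR-23a-3p and miR-27a-3p were the closest, at -0.87 and -0.80. miR-195a-5p and miR-497a-5p were the farthest apart, at 0.05 and 2.25.

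Both partners were called lower in EVs in 2 of these 11 pairs, and the log2 fold changes were -1.54 for miR-99b-5p with -1.77 for miR-125a-5p, and -2.70 for miR-23b-3p with -0.82 for miR-27b-3p. Both were called higher in 3, namely miR-132-3p with miR-212-3p, miR-143-3p with miR-145a-5p, and miR-17-5p with miR-20a-5p. Taken singly, 28.9% of all tested miRNAs were called lower and 28.6% higher. The ratio of the partners did not overlap between EVs and cells in 6 of the 11. The ratio of miR-221-3p to miR-222-3p also separates the groups at full depth, but not after thinning. How often ratios of unrelated miRNAs separate the groups was not computed, so whether this is particular to neighbours was not tested.

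**Figure D5:**
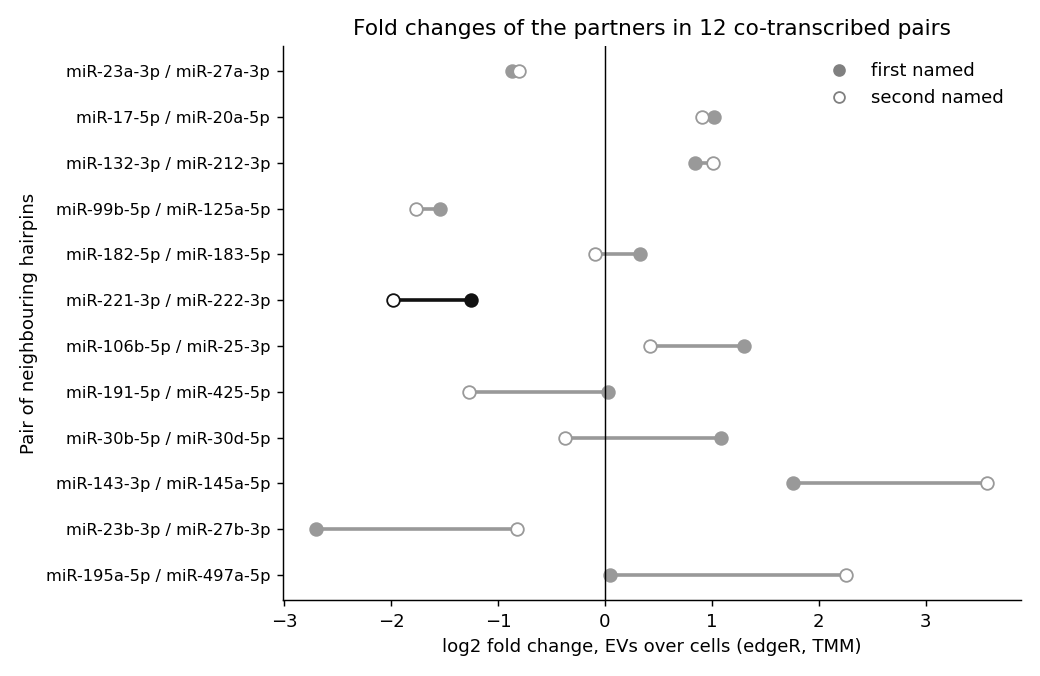
log2 fold change of EVs over cells for the partners of 12 pairs of neighbouring hairpins, sorted by the gap between partners, with miR-221-3p and miR-222-3p in black. Their gap of 0.73 lies in the middle by order, with 6 of the other gaps larger and 5 smaller. The other gaps range from 0.07 to 2.20.

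Because the guides are also abundant in other cell types, markers of those cells were read in the same libraries. In bulk samples fewer cells of a type and less RNA per cell cannot be told apart. The 4 miRNAs of endothelium and mural cells summed to 2518 to 4873 CPM in the EV libraries, against 418 to 1069 CPM in the cell libraries. Of these, 3 of 4 were called higher in EVs and 0 lower, where 28.6% of all tested miRNAs were called higher, a direction opposite to that of the guides. Their sum was 1069, 418 and 519 CPM in cell replicates 1, 2 and 3, the same order as the guides. In EVs it was 2933, 2518 and 4873 CPM, with replicate 3 highest, unlike the guides. The 3 miRNAs of fibroblasts and mesenchyme also stood higher, at 153 to 260 CPM in EV libraries against 7.88 to 44.8 CPM in cell libraries, with the 1 tested member called higher. None of these 7 was at 0 in all libraries, but miR-199a-5p and miR-214-3p were at 0 in some and were not tested. Both averaged 16.9 CPM in EVs, against 2.13 and 1.65 CPM in cells, and miR-199a-3p made up most of the mesenchymal sum. That sum was 44.8, 7.88 and 44.5 CPM in cell replicates 1, 2 and 3, again the order of the guides. In EVs it was 202, 153 and 260 CPM, with replicate 3 highest. Whether vascular or mesenchymal cells took part in the levels of the guides was not tested.

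Microglial and myeloid miRNAs moved in the same direction as the guides. Of 5 members, 0 were called higher in EVs and 4 lower, beside 28.9% lower among all tested miRNAs, with a median log2 fold change of -1.19 beside 0.06 for all. Their summed level was 1858, 612 and 1936 CPM in EVs replicates 1, 2 and 3 and 3425, 1592 and 4566 CPM in the cell replicates. Replicate 2 was the lowest of its group for this list as for the guides, but replicate 3 was the highest, where the guides were highest in replicate 1. miR-146a-5p, which restrains inflammatory signalling, was the largest member of the list in every library. miR-223-3p, the myeloid marker, averaged 54.5 CPM in EVs against 77.5 CPM in cells, but was the member not called (log2 fold change -1.01, edgeR BH-adjusted p = 0.125). By CPM it was higher in EVs than in cells in replicate 1. Its highest cell value by far was 153 CPM in Cells replicate 3. The part of these cells in the levels of the guides was not tested.

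Other markers that were higher in EVs also moved against the guides. The neuronal miR-124-3p and miR-137-3p summed to 21882 to 29942 CPM in EV libraries against 6889 to 13805 CPM in cell libraries. The liver miRNA miR-122-5p and the red cell miRNA miR-451a summed to 8474 to 11691 CPM in EV libraries against 39.5 to 102 CPM in cell libraries. Both members of each list were called higher in EVs, as were 28.6% of all tested miRNAs. The 5 miRNAs of the oligodendrocyte lineage were split, with 2 called higher and 3 lower, beside 28.6% and 28.9% of all tested miRNAs. By log2 fold change, miR-219a-2-3p (-1.37), miR-338-3p (-0.80) and miR-338-5p (-2.06) were lower. Those higher were miR-219a-5p (0.81) and miR-138-5p (0.73).

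Short motifs reported in human and mouse cells to favour export into vesicles, GGAG and GGCU, were looked for in the RefSeq mature sequences, on the miRNA strand as printed. miR-222-3p, the guide with the deeper reduction in EVs, holds GGCU from position 11, and neither miR-221-3p nor miR-221-5p holds either motif. GGCU was present in 13.1% of 1622 measured miRNAs with a sequence, and GGAG in 14.2%. Of 42 tested miRNAs with GGCU, 9 were called higher in EVs and 15 lower, beside 28.6% and 28.9% of all tested miRNAs, with a median log2 fold change of -0.24 beside 0.05 for all 297 tested miRNAs with a sequence. A match is a description of the letters and not of a bound protein.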

How the data were processed

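For each library the authors deposited a table of raw counts of reads for every mature miRNA. The submitters' processing notes name featureCounts 1.4.6-p4, Bowtie 0.12.8, cutadapt 1.7.1 and bcl2fastq 1.8.4, and the mouse build NCBIM37 (mm9). Which settings and miRNA annotation they used, and what was done with reads that match several places, was not stated. Per the labels' protocols the adapters carried 4 random bases. Whether these were used to remove PCR duplicates is not stated, so intervals cover counting error only.

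EVs were compared with cells by edgeR 4.0.16 (glmQLFTest, two-sided, R 4.3.3) after filterByExpr (minimum count 10) and TMM scaling, with group as the only term. The biological coefficient of variation was 23.8%. Adjustment was by Benjamini-Hochberg (BH) across the 336 miRNAs that passed, with calls below 0.05. The SE of an edgeR fold change was derived from the test, as the size of the log2 fold change divided by the square root of the F statistic. CPM came from total counts. Arm ratios were tested with limma 3.58.1 for hairpins with at least 10 counts in every library. Alternatives included DESeq2 1.42.0. On simulated counts for 336 miRNAs, edgeR called 61 of 86 changes of 1 log2 unit, 108 of 108 of 2 units, and 4 of 142 unchanged miRNAs. Those counts gave every miRNA the same spread, so the rates need not hold for a miRNA that varied more.

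EV and cell libraries that share a number deviated weakly together from their group means (correlations of 0.115, 0.103 and 0.254 over 336 miRNAs, prior count 2). Libraries with different numbers gave -0.14 to 0.02. The numbers served as pairs only in the replicate block, the sign-flip test and the comparison by number, not in the main fit. Within groups, chi-square was 7.73 to 37.5 times its degrees of freedom, so no libraries were duplicates. Named miRNAs were the members, the 3 most like each guide by Pearson r, miRNAs with the same seed, the listed neighbouring pairs and the marker lists. Members and lists were chosen with earlier results of these data known.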

Additional observations from a re-analysis of the deposited data

How the results depend on the processing

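miR-222-3p stayed called lower in EVs in all 16 alternatives, and miR-221-3p in 15 of 16, the exception being library size only (-0.75). Leaving out single libraries gave -1.62 to -0.94 for miR-221-3p (edgeR BH-adjusted p from 0.00652 to 0.04) and -2.31 to -1.41 for miR-222-3p (0.00107 to 0.0185). With the replicate block both calls held, and no other call on the members changed. Library size only gave 148 miRNAs higher and 60 lower in EVs, or 146 and 62 with the replicate block, in place of 96 and 97; 71.2% of calls were then higher, against 49.7%. Leaving out single libraries gave 66 to 101 higher and 88 to 98 lower.

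The ratio of the guides kept its direction in 9 of 9 alternatives, at 0.43 to 0.76 without single libraries, but after thinning it was 0.39 (exact permutation p = 0.4) and the groups overlapped. The replicate block cannot change this difference, and adding 1 to each count in place of 0.5 could hardly do so. Both gave 0.60, as in the main analysis, so neither is an independent check. The direction of the summed level held in 8 of 8, at -909 to -384 CPM without single libraries, although here too the replicate block could not change the value. On TMM-scaled CPM the summed level did not overlap between groups (exact permutation p = 0.1). The arm ratio of miR-221 reversed after thinning to equal depth (0.22, limma BH-adjusted p = 0.835); it rested on 18 reads of miR-221-5p in all. No alternative called either arm ratio: without single libraries miR-221 gave -0.70 to -0.13 and miR-222 0.17 to 1.89. Read numbers of 45 to 222 per guide and library limit the precision, beside the spread between libraries.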
